A study of Homo sapiens with 9 samples.

Results

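ATP-binding cassette (ABC) transporters are membrane proteins that use ATP to move drugs, drug conjugates, lipids, bile acids, haem precursors and ions across membranes. The genes described here are the 45 protein-coding genes of GENCODE 29 whose name is ABC, a subfamily letter from A to G and a number, out of 56823 genes summed in all. Membership follows the gene name, but the members were chosen with earlier results of these data known. Subfamily A has 12 of them, B has 9, C has 11, D has 4, E has 1, F has 3 and G has 5. A further 15 entries with ABC names, all pseudogenes, antisense RNAs and other genes that are not protein coding, were left out.

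Total RNA came from H1975, an established line of EGFR-mutant lung adenocarcinoma, with a dCas9-KRAB that doxycycline switches on. This is a Cas9 that does not cut DNA, fused to a repressor domain that silences the site a guide RNA brings it to. The control group expressed the non-targeting guide (NT), and the others expressed gRNA1 or gRNA2 against the long noncoding RNA TRIDENT, with 3 libraries in each group. All groups, the control included, grew in G418 and puromycin with Tet-free serum and received 4 ug/ml doxycycline for 72 h, so each carried the repressor, a guide and these agents. The labels name 1 parental line and do not say whether replicates are separate cultures, so p-values measure the spread between these libraries, which may be technical.

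ABC proteins are built from nucleotide-binding domains, which split ATP, and, in most members, membrane-spanning domains, which form the path for the cargo. In drug-treated tumour cells they are best known for pumping out chemotherapy and kinase inhibitors, the role of ABCB1 (P-glycoprotein), ABCC1 (MRP1) and ABCG2 (BCRP). In lung and other epithelia they also load surfactant lipid, export cholesterol and send glutathione and glucuronide conjugates out of the cell.

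Library totals ran from 16918432 to 26466536 reads, and the ABC genes held 0.105% to 0.11% of them in every library. Epithelial markers were high in all groups: EPCAM averaged 408 CPM (read counts scaled to a common library size and composition) in the controls and KRT7 averaged 913. CD3E of T cells was at 0 in the controls and COL3A1 of fibroblasts at 0 in every library, while CD68 stood at 60.7 and COL1A1 at 13.8 CPM in the controls. SFTPC, which defines alveolar type II cells, had 0 CPM in the controls, and SFTPB averaged 1.21. The labels do not give the target's gene identifier. It was matched by name to a RefSeq long noncoding RNA, TRIDDENT, which lists TRIDENT as a synonym and lies within the GENCODE gene AC005736.1, so the following check rests on that match. AC005736.1 stood at 2.58 ± 0.29 CPM (SD, n = 3) in the control libraries, 1.91 ± 0.16 under gRNA1 and 2.44 ± 0.13 under gRNA2. Its fold change was 0.745 with gRNA1 (95% interval 0.584 to 0.949, adjusted p = 0.133) and 0.945 with gRNA2 (0.749 to 1.19, adjusted p = 0.818), so neither difference passed the test, and these are the libraries labelled gRNA1 and gRNA2 throughout. Adjusted p values here come from edgeR's quasi-likelihood test with Benjamini-Hochberg adjustment over 19658 genes, and a gene is called when its adjusted p is under 0.05.

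The promoters of the pair of called ABC genes with the highest fold changes against the control are shown first. They are the 300-base windows that RefSeq (GRCh38.p14) gives around a transcription start, 5′ to 3′ on the gene's strand. Capitals mark letters that match the TATA box (TATAAA) or the CCAAT box (CCAAT, or ATTGG when it lies on the other strand). The ABCC2 window is chr10:99782390-99782689 on the plus strand, with its start at 99782640, which is the 5′ end of transcript ENST00000647814.1. ABCA12 has an upstream window at chr2:215138577-215138876 and a downstream window at chr2:215032037-215032336, both on the minus strand. The downstream start, 215032086, is the 5′ end of transcript ENST00000389661.4. The upstream start, 215138626, is not that of ENST00000272895.11, which holds the ABCA12 reads of the control and gRNA1 libraries and has its 5′ end at 215138428, outside the window.
ABCC2: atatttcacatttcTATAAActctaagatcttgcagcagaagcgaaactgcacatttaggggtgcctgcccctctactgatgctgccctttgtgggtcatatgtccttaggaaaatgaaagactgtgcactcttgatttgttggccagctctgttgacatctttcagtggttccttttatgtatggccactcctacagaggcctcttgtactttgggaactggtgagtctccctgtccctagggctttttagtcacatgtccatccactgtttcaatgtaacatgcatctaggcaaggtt
ABCA12 upstream: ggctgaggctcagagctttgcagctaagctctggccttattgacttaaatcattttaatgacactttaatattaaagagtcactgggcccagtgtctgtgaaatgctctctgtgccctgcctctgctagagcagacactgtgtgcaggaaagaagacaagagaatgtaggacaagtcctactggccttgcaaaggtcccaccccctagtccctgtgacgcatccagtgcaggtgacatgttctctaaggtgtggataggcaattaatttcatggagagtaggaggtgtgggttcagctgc
ABCA12 downstream: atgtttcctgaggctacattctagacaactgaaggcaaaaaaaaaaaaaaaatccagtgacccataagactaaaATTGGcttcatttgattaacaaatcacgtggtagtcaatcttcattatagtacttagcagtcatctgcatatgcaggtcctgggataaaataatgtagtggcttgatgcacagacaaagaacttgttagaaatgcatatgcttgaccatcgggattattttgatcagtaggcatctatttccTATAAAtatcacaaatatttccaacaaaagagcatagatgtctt
The ABCC2 and downstream ABCA12 windows each hold a TATAAA match, and the upstream ABCA12 window holds none of the motifs searched. In the ABCC2 window the match lies near the 5′ edge, far upstream of the start. In the downstream ABCA12 window it lies just past the start. Whether either match acts as a TATA box was not tested.

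In all, 35 of the 45 genes matched 53 RefSeq windows, and windows of 1 gene are not separate members. The 5 windows of genes called higher come from 4 genes, with 2 from ABCA12, and the 9 of genes called lower come from 4 genes, with 5 from ABCG2 and 2 from ABCA2. ABCC3 had no match. Not every window holds the 5′ end of its gene's main transcript. ENST00000261200.8, with 99.99% of the ABCC9 reads, starts at 21936674, outside the ABCC9 window at chr12:21941377-21941676. The upstream ABCA12 window also misses the start of ENST00000272895.11. Of the lower genes, ABCG2 has windows, such as chr4:88231577-88231876, that miss 88158912, the start of ENST00000237612.7. The composition and motif counts thus describe RefSeq windows, not only starts in use. Among the 5 windows of genes that were higher with either guide, the median GC content was 45% (34.7% to 49.7%) and the median number of CpG dinucleotides was 1. The 9 windows of genes that were lower had a median of 65.7% GC and 26 CpG, the 39 windows of genes not called had 61% and 20, and all 35116 RefSeq promoters had 58.7% and 14. CpG counts in the windows of the higher genes ran from 1 to 18, so they overlapped those of the other sets. Both strands were searched for 6 motifs. TATAAA was in 3 of the 5 windows of higher genes, 2 of 9 of lower genes and 3 of 39 of the rest, against 11.5% of all promoters. The GC box GGGCGG was in 1 of 5, 5 of 9 and 19 of 39, against 45% of all promoters. The antioxidant response core TGACNNNGC (13.3% of all promoters), the CRE palindrome TGACGTCA (1.8%) and the nuclear receptor hexamer AGGTCA (13.8%) were in 0 of the 5 windows, and CCAAT (34.6%) was in 1. A match is only a description of letters in the window, and the numbers of windows are small.

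Most of the family had reads in the H1975 controls, but some genes had few, such as ABCF1 with 26, 2 and 32. Of the 45 genes, 36 passed the filter on low counts, which used all 9 libraries, and were tested. The other 9 were ABCA10, ABCB1, ABCB4, ABCC8, ABCC11, ABCC12, ABCD2, ABCG4 and ABCG5. ABCB1, the classic multidrug pump, had 1 read in the 9 libraries together and 0 in 8 of them, where 3 reads would be 0.122 to 0.18 CPM. ABCD2, a peroxisomal fatty acid transporter, had 0 reads in all 9. The single ABCB1 read was in gRNA2 replicate 2, so no level of ABCB1 could be measured in any group at this depth. The limit from a count of 0 covers counting error only.

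In TPM, which corrects for transcript length, ABCE1, which recycles ribosomes, was highest at 44.3 ± 3.1 TPM (SD, n = 3) in the controls. ABCF3 followed at 33.1 ± 1.4 and overlapped the drug efflux gene ABCC10 (MRP7) at 31.5 ± 0.9. Of the ABCC10 reads, 60.7% were on retained-intron transcripts and 34.6% on protein-coding ones. Its retained-intron transcript ENST00000437104.3, of 733 bases, alone had 21.0, 22.3 and 23.7 TPM in the controls, and the rest of ABCC10 had 9.55, 9.81 and 8.19. The other efflux genes were led by ABCC4 (MRP4, an exporter of nucleotide analogues and prostaglandins) with 26.8 ± 1.4 TPM, followed by ABCC3 with 20.0 ± 1.0, ABCC5 with 16.3 ± 0.5 and ABCG2 with 11.4 ± 0.8. Only 14.3% of the ABCC3 reads were on protein-coding transcripts. Its coding transcript ENST00000285238.12 held 0.69, 0.69 and 0.53 TPM in the controls, so its rank is not that of coding transcripts. ABCC1 at 6.93 ± 0.92 and ABCC2 at 6.53 ± 1.71 did not differ beyond their spread. Summed over all their transcripts, the lipid transporters were led by ABCA2 at 27.8 ± 5.4 TPM, ABCA7 at 21.5 ± 1.5 and ABCD3 at 19.9 ± 3.0, whose levels overlapped. The 886-base retained-intron transcript ENST00000431584.2 held 12.5, 12.9 and 8.04 of the ABCA2 TPM in the controls. The 725-base retained-intron transcript ENST00000531478.5 held 6.72, 9.51 and 6.32 of the ABCA7 TPM. The order is thus not that of coding transcripts alone. ABCA12 was among the lowest detected genes at 0.0726 ± 0.0115 TPM.

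**Figure D1:**
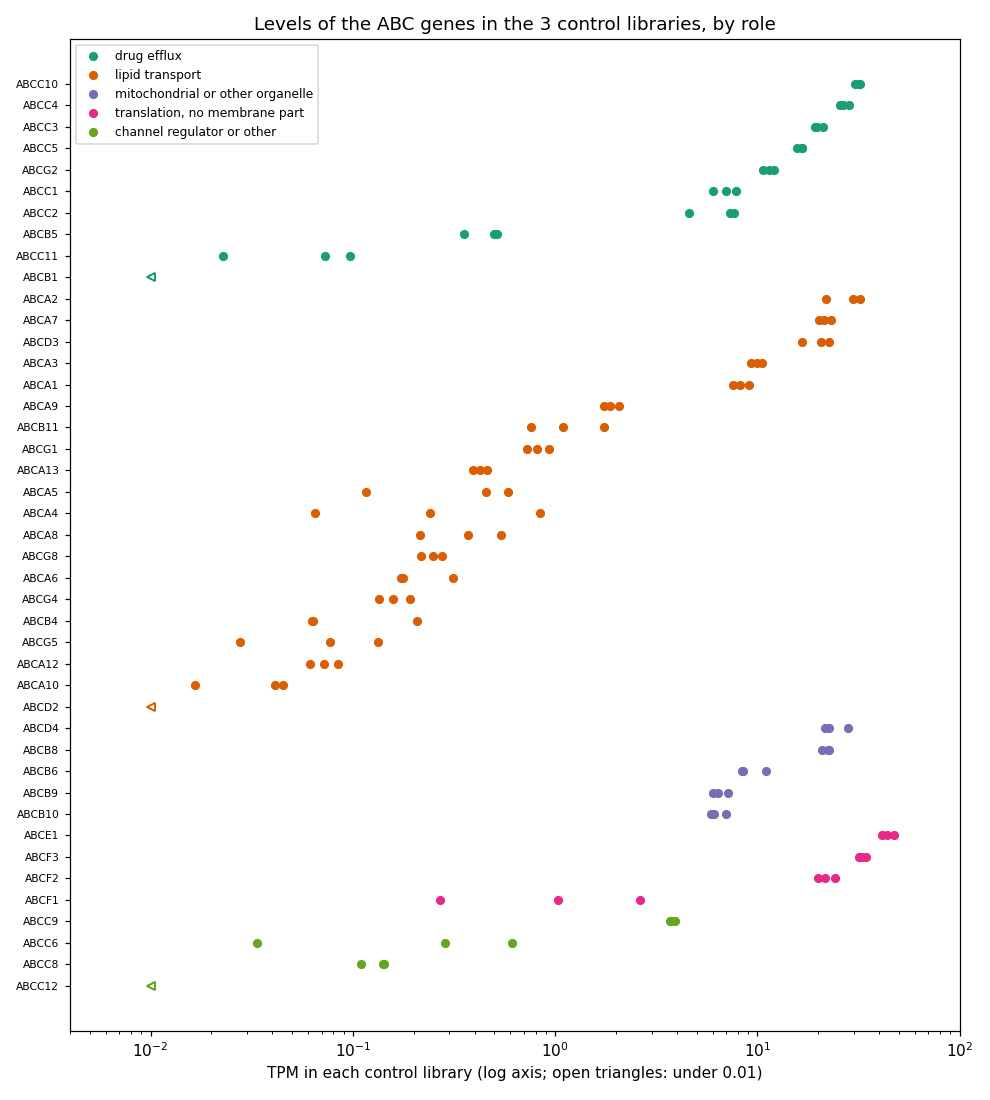
TPM of 43 of the 45 ABC genes in each of the 3 control libraries, on a log axis, coloured by role; open triangles stand for values under 0.01. ABCE1 is highest, at a mean of 44.3 TPM, and ABCB1, ABCD2 and ABCC12 lie at the lower edge.

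Against the control, 7 of the 36 tested genes were called with gRNA1, 5 higher and 2 lower. Over all 19658 genes 7.87% were called, 3.87% higher and 4% lower. With gRNA2, 5 of the 36 were called, 3 higher and 2 lower, against 9.2% of all genes, 4.05% higher and 5.14% lower. Between the guides 2 genes were called, 0 higher and 2 lower with gRNA2, against 6.87% of all genes, 3.51% higher and 3.36% lower. As a share of the 36, the called genes were 19.4%, 13.9% and 5.56% in these comparisons, and the last is near the share of all genes. The 3 libraries of each group did not overlap in 14 of the 36 genes between gRNA1 and the control (28.1% of all genes), in 13 between gRNA2 and the control (27.4%) and in 13 between the guides (23.8%). In these bulk libraries, fewer cells with a transcript and less of it per cell cannot be told apart. The median log2 fold change of the 36 genes was 0.015 with gRNA1 and 0.068 with gRNA2, beside 0 and 0.009 over all genes, so the family as a whole lay close to the middle of the transcriptome. The guides share the same control libraries, so their comparisons with the control are not independent.

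**Figure D2:**
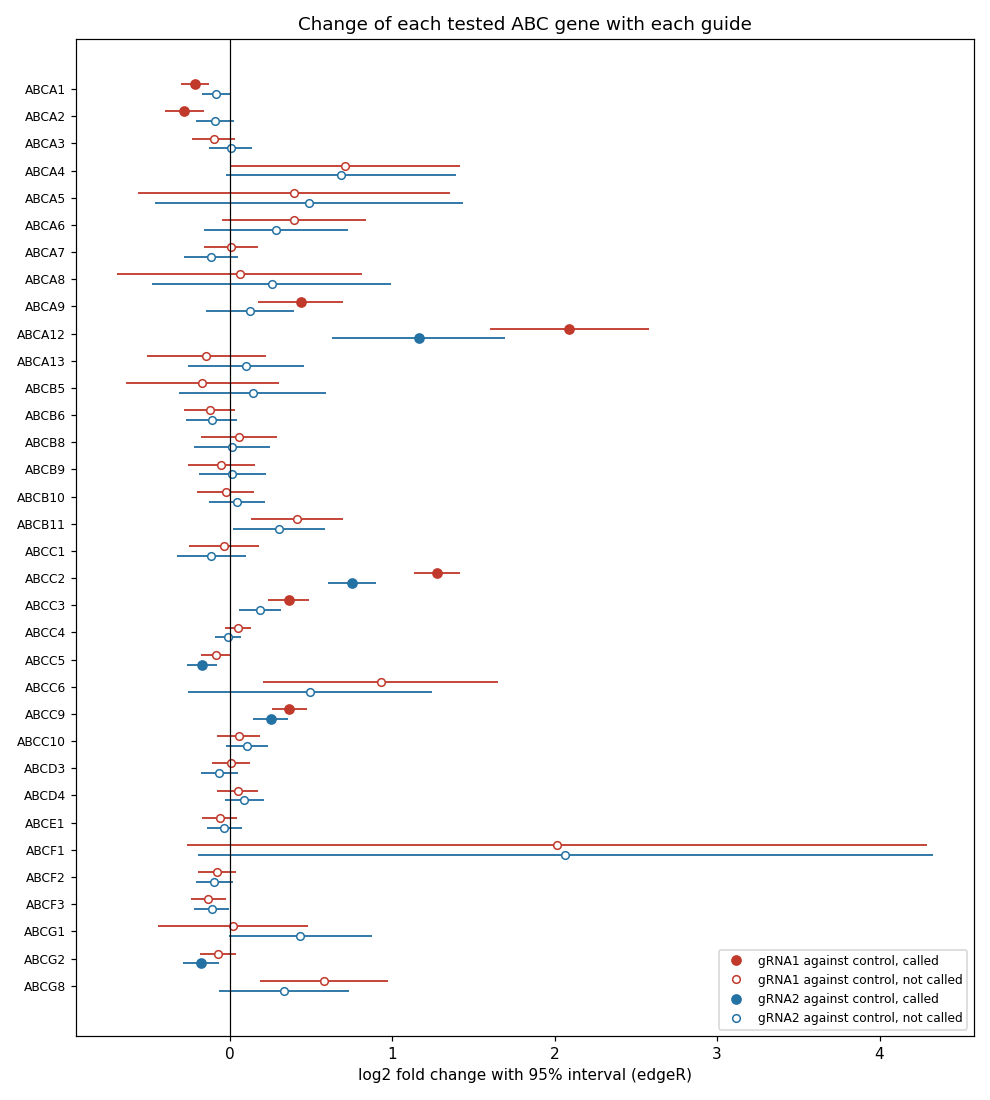
log2 fold change of 34 of the 36 tested ABC genes against the control for gRNA1 (red) and gRNA2 (blue), with 95% intervals; filled points are called. Most genes lie near 0, ABCA12 and ABCC2 lie furthest to the right among the filled points, and the wide intervals of ABCF1 rest on few reads.

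By subfamily, the C genes had 3 of 8 tested called higher with gRNA1 (ABCC2, ABCC3 and ABCC9), and 2 higher and 1 lower with gRNA2. Their median log2 fold changes were 0.21 and 0.15. The A genes had 2 of 11 higher and 2 lower with gRNA1, and 1 higher with gRNA2, with medians of 0.06 and 0.13. Of the 7 tested B genes, 3 D genes, 1 E gene and 3 F genes, 0 were called with either guide. Of the 3 tested G genes, 0 were called with gRNA1 and 1, ABCG2, was lower with gRNA2.

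Drug efflux was assigned to 10 genes, ABCB1, ABCB5, ABCC1 to ABCC5, ABCC10, ABCC11 and ABCG2, and 8 of them were tested. With gRNA1 2 of the 8 rose (ABCC2 and ABCC3) and 0 fell. With gRNA2 1 rose (ABCC2) and 2 fell (ABCC5 and ABCG2).

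ABCC2 (MRP2, ENSG00000023839.11) lies at chr10:99782640-99852594 and exports glutathione and glucuronide conjugates and platinum complexes through the apical membrane. It had 13.6, 15.1 and 15.8 CPM in the controls, 36.2, 36.2 and 35.5 with gRNA1, and 23.6, 26.3 and 25.3 with gRNA2. The groups did not overlap: every gRNA1 library was above every gRNA2 library, and every gRNA2 library above every control. With gRNA2 the level was 1.69 times the control (95% interval 1.52 to 1.87, adjusted p = 9.57e-07), and it was 0.698 times that with gRNA1 (0.636 to 0.765, adjusted p = 3.05e-05). The gRNA1 interval against the control, 2.19 to 2.67, lay wholly above the gRNA2 interval. The call between the guides was lost with an offset for transcript length (log2 fold change -0.41, adjusted p = 0.181), while both calls against the control were kept in all 18 alternative fits. This offset lowered the calls over all 19658 genes from 1548 to 565 with gRNA1, from 1808 to 466 with gRNA2 and from 1350 to 465 between the guides, so losses under it are not particular to ABC genes.

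The reads of ABCC2 were assigned to different transcripts in different libraries. Controls 1 and 3 had 216 and 271 estimated reads on ENST00000370449.9 (5714 bases) and 0 on ENST00000647814.1 (5806 bases), while the other 7 libraries had 0 on the former and 292 to 697 on the latter. Both end at the same base and start at 99782732 and 99782640. The gene sums used here do not depend on this split. ABCC2 had 4.57, 7.69 and 7.33 TPM in the controls. Of these, the long transcript in use held 1.64, 1.70 and 1.75 TPM. The 525-base processed transcript ENST00000496621.1 held 2.06, 4.59 and 4.09 TPM.

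ABCC3 (MRP3), a basolateral exporter of conjugates and bile acids, lies at chr17:50634777-50692252. It had 40.9, 41.8 and 41.3 CPM in the controls, 50.0, 51.3 and 58.4 with gRNA1, and 49.8, 47.2 and 43.8 with gRNA2. All guide libraries were above all controls, and the gRNA1 libraries above those of gRNA2. Relative to the control, ABCC3 was 1.29-fold with gRNA1 (95% interval 1.178 to 1.404, adjusted p = 0.000726) and 1.14 with gRNA2 (1.04 to 1.24, adjusted p = 0.0628), which was not called. Of its reads, 54.9% were assigned to transcripts annotated for nonsense-mediated decay, 21.1% to retained-intron transcripts and 14.3% to protein-coding transcripts. With protein-coding transcripts alone the gRNA1 call was lost (log2 fold change 0.72, adjusted p = 0.204).

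ABCC5 (MRP5), an exporter of cyclic nucleotides and nucleotide analogues, lies at chr3:183919934-184018015. It had 64.0, 64.0 and 62.9 CPM in the controls, 61.3, 59.7 and 58.9 with gRNA1, and 57.4, 56.8 and 55.1 with gRNA2. The 3 groups did not overlap, with gRNA2 lowest. Expression relative to the control was 0.888-fold with gRNA2 (95% interval 0.834 to 0.946, adjusted p = 0.0165) and 0.943 with gRNA1 (0.885 to 1.00, adjusted p = 0.261). The gRNA2 call was kept in 12 of 18 alternative fits and was lost without any 1 of the 3 controls (adjusted p of 0.0558, 0.0743 and 0.0535), without gRNA2 replicate 2 (0.0713) or replicate 3 (0.0598), and with the length offset (0.116).

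ABCG2 (BCRP), which exports topoisomerase poisons and several EGFR inhibitors, lies at chr4:88090264-88231322. It had 42.4, 40.2 and 43.0 CPM in the controls, 39.6, 40.7 and 39.0 with gRNA1, and 36.0, 38.8 and 36.0 with gRNA2. The gRNA2 libraries were all below the controls. Against the control, ABCG2 was 0.884-fold with gRNA2 (95% interval 0.819 to 0.954, adjusted p = 0.0394) and 0.951 with gRNA1 (0.881 to 1.03, adjusted p = 0.453). The gRNA2 call was kept in 4 of 18 alternative fits, with adjusted p values up to 0.165.

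ABCC1 and ABCC4 were not called. ABCC1 (MRP1), an exporter of glutathione conjugates, had 24.1, 30.9 and 25.2 CPM in the controls, 25.5, 27.8 and 25.3 with gRNA1, and 27.9, 21.8 and 24.8 with gRNA2, and the groups overlapped. Its fold changes were 0.976 (95% interval 0.842 to 1.13) and 0.924 (0.797 to 1.07). ABCC4 had 106, 104.8 and 105 CPM in the controls, 106.5, 110.7 and 109.7 with gRNA1, and 103.9, 102.9 and 106.7 with gRNA2. Its intervals, 0.979 to 1.10 and 0.938 to 1.05, allow only small changes. Summed over its transcripts, ABCC10 had fold changes of 1.04 (0.949 to 1.14) and 1.08 (0.985 to 1.18), neither called.

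The summed level of the 10 efflux genes, given without a test, was 116, 120.9 and 123.2 TPM for the control libraries, 147.1, 148.4 and 131.7 with gRNA1, and 133.4, 132.8 and 138.8 with gRNA2. All guide libraries were above all controls. ABCC2 made up 5.42% ± 1.3 (SD, n = 3) of this sum in the control libraries, 9.83% ± 0.29 under gRNA1 and 8.04% ± 0.09 under gRNA2, while ABCG2 made up 9.46%, 8.17% and 7.21%. The sum is not that of coding transcripts alone, and only 14.3% of the ABCC3 reads were on protein-coding ones. The ABCC2 share is likewise not that of coding transcripts alone. Its 525-base processed transcript ENST00000496621.1 held 2.06, 4.59 and 4.09 TPM in the controls. The same transcript held 7.30, 6.12 and 5.95 TPM with gRNA1, and 6.48, 4.69 and 5.66 with gRNA2. ABCC10 averaged 31.5 TPM in the control libraries, 36.9 in those of gRNA1 and 39.6 in those of gRNA2, and its reads per gene were not called. Its retained-intron transcript ENST00000437104.3 had 29.9, 29.2 and 23.6 TPM with gRNA1 and 28.0, 30.4 and 32.8 with gRNA2, against 21.0 to 23.7 in the controls. Without this transcript the efflux sum was 95, 98.6 and 99.5 TPM in the controls, 117.2, 119.2 and 108.1 with gRNA1, and 105.4, 102.4 and 106.0 with gRNA2, so the guide libraries were still above all controls.

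**Figure D3:**
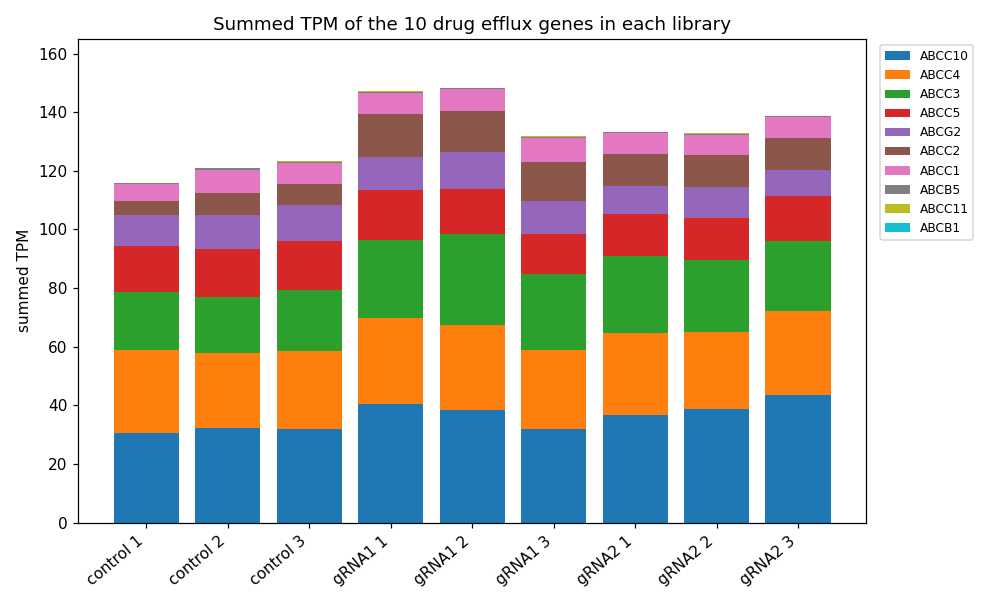
Summed TPM of the 10 drug efflux genes in each of the 9 libraries, stacked by gene. The controls reach 116 to 123.2 TPM and the guide libraries 131.7 to 148.4.

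Lipid transport was assigned to 21 genes: the A subfamily, most of the G subfamily and some of the B and D subfamilies. Of the 16 tested, 2 rose with gRNA1 (ABCA12 and ABCA9) and 2 fell (ABCA1 and ABCA2), while 1 rose (ABCA12) and 0 fell with gRNA2. Their summed level averaged 96.8 ± 8.8 TPM (SD, n = 3) among control libraries, 98.0 ± 2.5 with gRNA1 and 104 ± 2.6 with gRNA2, so the groups overlapped within their spread.

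ABCA12, which loads glucosylceramide into the lamellar granules of keratinocytes and is mutated in harlequin ichthyosis, lies at chr2:214931542-215138428. It had 0.696, 0.937 and 0.828 CPM in the controls, 2.86, 4.01 and 3.74 with gRNA1, and 2.02, 1.30 and 2.40 with gRNA2. The groups did not overlap, and gRNA1 was highest. In reads this is 58, 94 and 76 with gRNA1 and 49, 34 and 40 with gRNA2, so counting error is a large part of the spread. The fold change was 2.24 with gRNA2 (95% interval 1.55 to 3.24, adjusted p = 0.00611), and with gRNA1 the interval was 3.035 to 5.98. The level with gRNA2 was 0.5255 times that with gRNA1 (0.391 to 0.707, adjusted p = 0.00765). The length offset ended the gRNA2 call, at a higher log2 fold change (1.64 in place of 1.16, adjusted p = 0.0898), and the call between the guides (-0.45 in place of -0.93, adjusted p = 0.662), and the latter was also lost without gRNA1 replicate 2 (0.0531) or gRNA2 replicate 2 (0.0703).

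All ABCA12 reads of the control and gRNA1 libraries were assigned to ENST00000272895.11 (9100 bases). With gRNA2, ENST00000389661.4 (7005 bases), the transcript that starts at the downstream window shown above, had 23.1 and 21.3 estimated reads in replicates 1 and 3 and 0 in replicate 2. These transcripts overlap, so the split of the 49, 34 and 40 reads with gRNA2 is an estimate. Use of either start was not tested. The keratinocyte markers KRT1 and KRT5 had 0 CPM in the controls and KRT14 averaged 0.0289. Of 15 partner genes of the skin lipid barrier, 8 were tested and 0 rose with either guide. Over all genes, 3.87% rose and 4% fell with gRNA1, and 4.05% rose and 5.14% fell with gRNA2. So few genes cannot show a difference from these shares. UGCG, which makes glucosylceramide, fell with gRNA1 (0.736-fold, adjusted p = 3.65e-06), and 1 other gene of the list fell with gRNA2. UGCG did not fall with gRNA2, where it averaged 294.9 CPM against 285.1 in the controls.

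ABCA1 loads cholesterol and phospholipid onto apolipoprotein A-I and lies at chr9:104781002-104928237. It had 82.6, 85.1 and 83.8 CPM in the controls, 73.8, 73.9 and 69.2 with gRNA1, and 78.6, 79.1 and 79.6 with gRNA2. The 3 groups did not overlap, with gRNA1 lowest. ABCA1 was 0.863-fold the control level with gRNA1 (95% interval 0.811 to 0.917, adjusted p = 0.00315), kept in all 18 alternative fits, and 0.943 with gRNA2 (0.888 to 1.00, adjusted p = 0.237).

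ABCA2, an endolysosomal sterol transporter at chr9:137007227-137028922, had 108.5, 99.1 and 95.9 CPM in the controls, 82.0, 82.5 and 85.4 with gRNA1, and 103.3, 93.0 and 87.9 with gRNA2. The gRNA1 libraries were below all others, and gRNA2 overlapped the controls. The fold change was 0.824 with gRNA1 (95% interval 0.759 to 0.894, adjusted p = 0.00403) and 0.939 with gRNA2 (0.866 to 1.02, adjusted p = 0.352). The gRNA1 call was lost with the length offset (adjusted p = 0.293). The level with gRNA2 was 1.14 times that with gRNA1 (1.05 to 1.24, adjusted p = 0.0509), just short of the threshold.

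ABCA9, at chr17:68974488-69061064, belongs to a cluster of 5 A genes spanning 460 kb. It had 3.42, 4.32 and 3.82 CPM in the controls, 5.03, 5.42 and 5.27 with gRNA1, and 4.12, 4.54 and 3.96 with gRNA2. The gRNA1 libraries were above all others. The fold change was 1.35 with gRNA1 (95% interval 1.13 to 1.62, adjusted p = 0.0387) and 1.09 with gRNA2 (0.906 to 1.32, adjusted p = 0.61). Other genes share 11.1% of the 31-base words of its transcripts, and the gRNA1 call was kept in 9 of 18 alternative fits.

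ABCA3 and ABCG1 were not called. ABCA3, the surfactant lipid transporter of alveolar type II cells, had 47.7, 42.8 and 43.4 CPM in the controls, 41.1, 39.9 and 44.1 with gRNA1, and 48.9, 42.9 and 42.0 with gRNA2. Its fold changes were 0.935 (95% interval 0.853 to 1.03) and 1.00 (0.916 to 1.10). ABCG1, which passes cholesterol to high-density lipoprotein, had 1.39, 1.55 and 1.47 CPM in the controls, 1.63, 1.62 and 1.23 with gRNA1, and 1.98, 2.44 and 1.44 with gRNA2, and the groups overlapped. Of these reads, 97.6% were on a retained-intron transcript and 2.44% on protein-coding ones, so they are not a measure of the coding transcript. The fold changes were 1.015 (0.737 to 1.399) and 1.35 (0.996 to 1.84, adjusted p = 0.221). ABCA7, a phospholipid transporter of subfamily A, had 1.006 (0.897 to 1.13) and 0.924 (0.824 to 1.04). ABCG8, the sterol export partner of ABCG5, had a fold change of 1.496 with gRNA1 (1.14 to 1.96, adjusted p = 0.0633), and 1.26 with gRNA2 (0.955 to 1.66).

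The 6 genes of mitochondria and other organelles, such as ABCB8 and ABCD4, were all tested and 0 of them were called with either guide. ABCB8, a mitochondrial transporter, had fold changes of 1.041 (95% interval 0.885 to 1.22) and 1.009 (0.858 to 1.19), and ABCD4, which takes part in the release of vitamin B12 from lysosomes and had 44.7% of its reads on retained-intron transcripts, had 1.034 (0.949 to 1.13) and 1.065 (0.978 to 1.16). Other genes share 52.5% of the 31-base words of ABCB6, so its level is uncertain. The translation genes ABCE1, ABCF1, ABCF2 and ABCF3 were also tested and not called, and other genes share 24.1% of the words of ABCE1 and 48.4% of those of ABCF2. ABCE1 had 0.959 (0.890 to 1.03) and 0.977 (0.907 to 1.05), and ABCF3, with 41.7% of its reads on retained-intron transcripts, had 0.913 (0.848 to 0.983, adjusted p = 0.126) and 0.925 (0.859 to 0.996, adjusted p = 0.188). ABCF1 had only 3 of its 7 annotated transcripts listed, and its interval of 0.833 to 19.6 with gRNA1 leaves it without a usable level.

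ABCC6, ABCC8, ABCC9 and ABCC12 form the group of channel regulators and others, of which 2 were tested. ABCC9 (SUR2), the regulatory subunit of ATP-sensitive potassium channels, lies at chr12:21797401-21942529. It had 33.5, 35.2 and 34.1 CPM in the controls, 45.1, 44.0 and 43.5 with gRNA1, and 39.1, 42.0 and 41.6 with gRNA2. The 3 groups did not overlap, with gRNA1 highest. The fold change was 1.29 with gRNA1 (95% interval 1.197 to 1.389, adjusted p = 0.00014) and 1.19 with gRNA2 (1.11 to 1.28, adjusted p = 0.00349), and the latter was lost with the length offset (0.0724). Between the guides the fold change of 0.925 was not called (adjusted p = 0.218). An antisense gene, AC008250.1, overlaps ABCC9 on the other strand with 9, 9 and 11 reads in the controls, 9, 13 and 16 with gRNA1, and 22, 19 and 11 with gRNA2. Its part in the ABCC9 result was not tested. ABCC6, a transporter involved in pyrophosphate release, had fold changes of 1.90 (1.154 to 3.139, adjusted p = 0.11) and 1.41 (0.835 to 2.37), and other genes share 23.1% of its 31-base words.

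**Figure D4:**
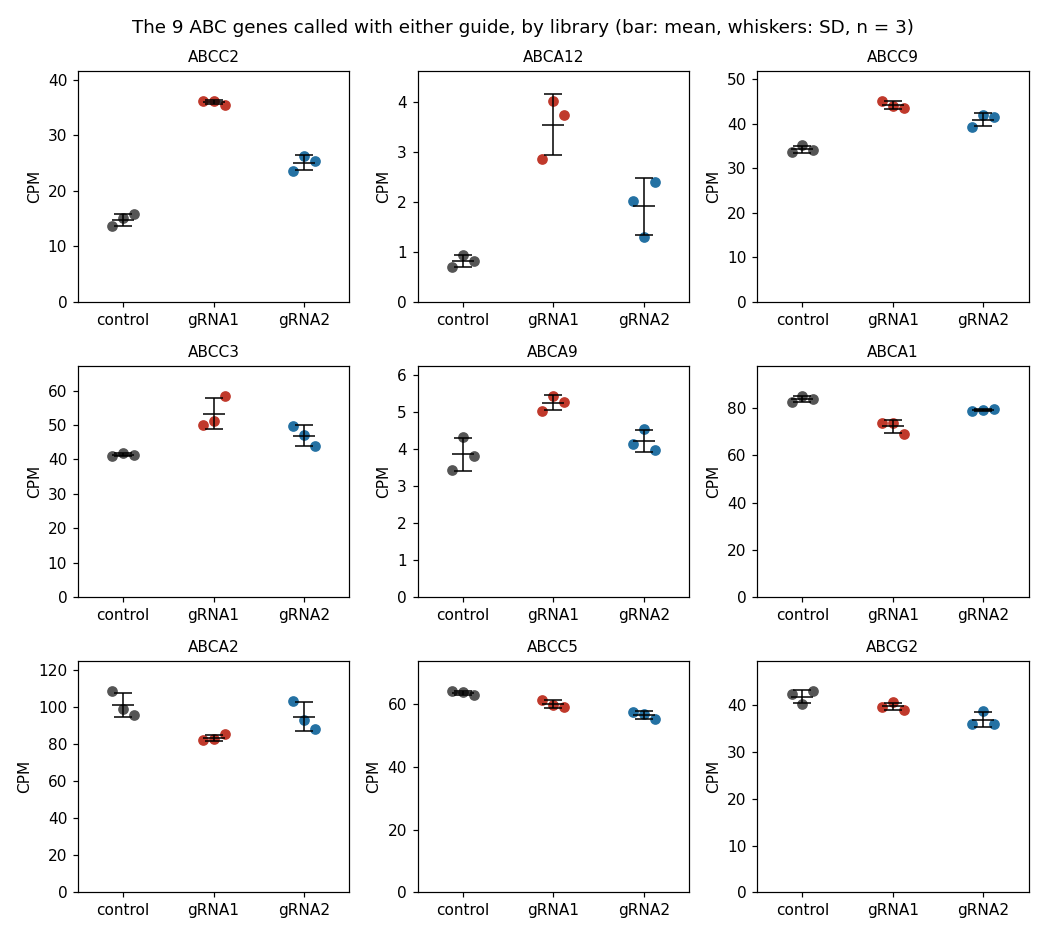
CPM of the 9 ABC genes called with either guide, by library, with group mean and SD (n = 3). ABCC2 shows 3 separate levels, with means of 14.8, 35.9 and 25.1 CPM, whereas ABCG2 spans only 36.0 to 43.0 CPM over all libraries.

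The strength of the calls differed between genes. With gRNA1 the highest adjusted p over the 18 alternative fits was 0.0031 for ABCC2, 0.00841 for ABCC9, 0.0277 for ABCA12 and 0.0329 for ABCA1. For ABCC2 with gRNA2 it was 0.0416. It was 0.165 for ABCG2 with gRNA2.

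**Figure D5:**
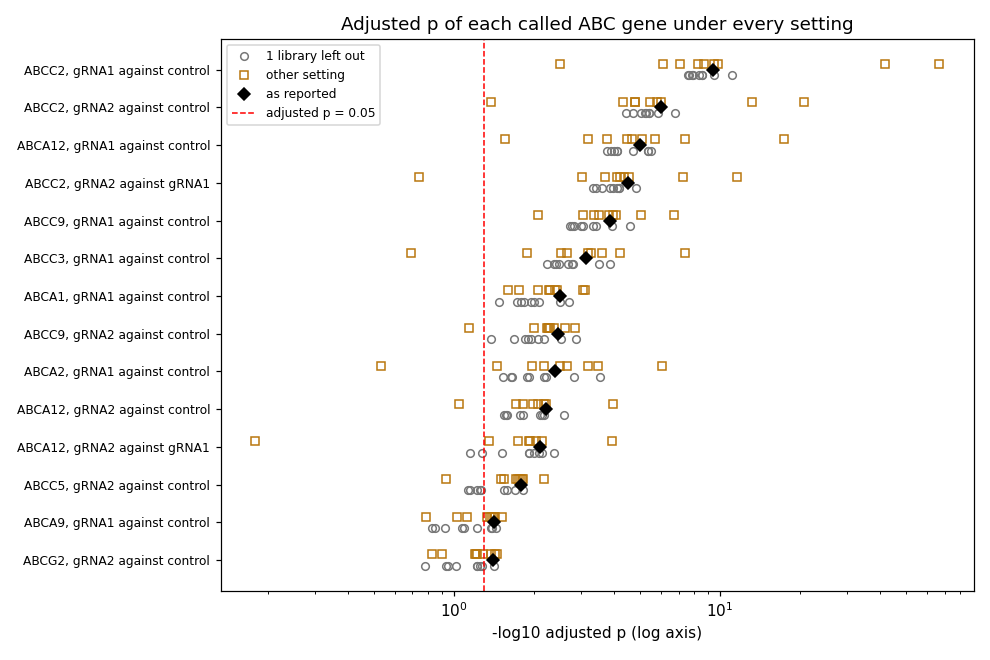
Adjusted p of each called comparison as -log10 on a log axis, as reported (diamond), with 1 library left out (circles) and in other settings (squares); the red dashed line is an adjusted p of 0.05. ABCC2, ABCC9, ABCA12 and ABCA1 with gRNA1 and ABCC2 with gRNA2 stay to the right of the line in every fit, and ABCG2 lies on both sides of it.

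None of the called ABC genes lies on chromosome 16, where AC005736.1 spans 3931217 to 3950586. The nearest ABC gene, ABCA3, is 1.59 Mb away and was not called with either guide. ABCC1 and ABCC6, the next nearest, are 12 and 12.2 Mb away and were not called.

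Genes that act with the ABC transporters were counted from lists. Over all genes, 3.87% were called higher and 4% lower with gRNA1, and 4.05% and 5.14% with gRNA2, and no list was tested against these shares. Of 22 transcription factors and sensors known to act on ABC genes, 20 were tested: 1 rose and 2 fell with gRNA1, and 1 rose and 1 fell with gRNA2. ARNT, the partner of the aryl hydrocarbon receptor, rose 1.202-fold with gRNA1 (adjusted p = 0.00179), PPARD fell with gRNA1 (0.796-fold, adjusted p = 0.00245), and NFE2L2 (NRF2) rose 1.11-fold with gRNA2 (adjusted p = 0.0463). Of 16 NRF2 target genes, 0 were called with gRNA1, and with gRNA2 1 rose and 5 fell. HMOX1, which breaks down haem, fell (0.767-fold, adjusted p = 0.000219), and SLC7A11, the cystine importer, rose 1.30-fold (adjusted p = 0.00245). Of 11 tested LXR and sterol export partners, 1 fell with gRNA1, and 0 were called with gRNA2.

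Of 20 tested drug uptake and conjugation genes, 2 rose and 0 fell with gRNA1, and 2 rose and 1 fell with gRNA2. CYP1B1, a cytochrome P450 induced through the aryl hydrocarbon receptor, rose 1.60-fold with gRNA1 (adjusted p = 3.15e-07) and 1.145-fold with gRNA2 (adjusted p = 0.0424). CYP1A1, another gene induced through that receptor and named after its values were seen, had fold changes of 0.794 with gRNA1 (adjusted p = 0.0993) and 0.853 with gRNA2 (adjusted p = 0.257). Of the 5 tested scaffold genes that hold ABCC2 at the apical membrane, 0 were called with gRNA1 and 3 fell with gRNA2: EZR, MSN and RDX, at 0.904-, 0.898- and 0.900-fold (adjusted p of 0.00746, 0.0148 and 0.0333). Of 8 peroxisome and B12 partners, 0 were called with gRNA1 and 2 fell with gRNA2, and of 6 ribosome recycling partners 0 were called with either guide. Of the ABC proteins under other names, TAP1, the peptide transporter of antigen presentation, was the 1 tested of 3 and had fold changes of 0.871 (adjusted p = 0.0953) and 0.958 (adjusted p = 0.652).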

How the data were processed

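Total RNA of 9 libraries, depleted of ribosomal RNA per the labels' protocols, was quantified by the authors with Salmon 1.4.0 on hg38, per the submitters' processing notes; the strand setting is not given in the sources used here. The deposited tables hold, per the file headers, an estimated count of reads and TPM per transcript. Of 211939 transcripts, 95.71% matched GENCODE 29. Estimated counts were summed to genes and rounded; 1.264% to 1.325% of reads were on unmatched transcripts and left out. TPM was summed, described and not tested.

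In edgeR 4.0.16 (R 4.3.3), filterByExpr left 19658 genes, libraries were scaled by TMM, and two-sided quasi-likelihood F tests with robust estimation compared the 3 groups of the labels in 1 fit of all 9 libraries, with Benjamini-Hochberg adjustment over all genes tested and a threshold of 0.05. CPM use TMM-scaled totals, and 95% intervals reflect the counts and the variation among libraries. As alternatives, low counts were left unfiltered, libraries were scaled by RLE, and DESeq2 1.42.0 was used, beside a replicate block, a transcript length offset, protein-coding genes or transcripts alone, only the groups compared, and leaving out each library in turn; the fit without robust estimation was added after seeing the data. Sums and sequence searches used pandas 2.3.3 in Python 3.11.15, and figures matplotlib 3.10.9.

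Per-library values are given for called ABC genes and a fixed set of efflux and lipid genes, up to 3 further genes of each subfamily are named by control TPM, and up to 4 genes of each list by adjusted p. Members, roles and lists were chosen with earlier results of these data known, so no list was tested as a set. Some genes are not reported here by name, and counts include them.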

Additional observations from a re-analysis of the deposited data

How the results depend on the processing

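The number of ABC genes called with gRNA1, 7, ranged from 5 to 7 over the 18 alternatives. With gRNA2, 5 became 3 with DESeq2 and 1 with the transcript length offset (calls over all genes fell from 1808 to 466), and 3 to 6 with 1 library left out (3 without control replicate 1, 2 or 3 or gRNA2 replicate 2). Between the guides, 2 became 4 with no filter on low counts, 0 with the length offset (1350 to 465 over all genes), and 1 to 4 with 1 library left out (1 without gRNA1 replicate 2 or gRNA2 replicate 2, 4 without gRNA2 replicate 1). The cause was not tested. For the 13 ABC genes followed singly through the alternatives, 213 of the called values kept their call and 37 lost it. Of those not called, 416 stayed so, 13 passed the threshold and 16 changed sign near 0. These log2 values were 0.056 for ABCA2 with gRNA2 and, with gRNA1, 0.126 for ABCC1 and 0.008 for ABCG2, all with the length offset; for ABCA3 with gRNA2, -0.004 with DESeq2 and -0.001 with no filter; and 0.008 for ABCC4 with gRNA2 among protein-coding genes alone. With 1 library left out, ABCA3 with gRNA2 ran from -0.062 to 0.057, ABCC1 from -0.098 to 0.092 with gRNA1, from -0.21 to 0.011 with gRNA2 and from -0.177 to 0.01 between the guides, ABCC4 with gRNA2 from -0.024 to 0, and ABCG1 with gRNA1 from -0.042 to 0.141.

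Same-numbered libraries did not deviate together (correlations of -0.046 to 0.073 in 9 pairs, beside -0.074 to 0.054 in 18 pairs of different numbers). No shared replicate effect was visible, but correlations cannot tell whether the numbers mark a pairing of cultures. With the replicate block 7, 4 and 3 ABC genes were called with gRNA1, with gRNA2 and between the guides. Depth limits the 9 untested genes and low tested genes such as ABCA5 (4 to 19 reads per library) most.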
